A study of Mus musculus with 31 samples.

Results

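Dorsal root ganglion somas of the second batch of a mouse study of ribosome-bound RNA are described here, 8 of its 31 libraries. They were chosen by their labels: 4 libraries from mice that carry Nav1.8-Cre together with L10a-eGFP-fl/fl, called Cre 5 to 8 by their replicate numbers, and 4 libraries from L10a-eGFP-fl/fl mice without Cre, called controls 5 to 8. All 8 came from lumbar dorsal root ganglia, and the labels call the replicates biological. All mice therefore carry the floxed tagged ribosomal protein, and the groups differ in the Cre allele alone as far as the labels say. The ages and sexes of the mice are not given in the sources used here. Other libraries of the study came from axons and from the somas of the first batch.

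Translating ribosome affinity purification (TRAP) pulls down ribosomes that carry a tag and sequences the RNA bound to them. Here the tag is a green fluorescent protein fused to the ribosomal protein L10a, and it is made only where Cre recombinase has removed a block. Nav1.8 is the sodium channel encoded by Scn10a, and its promoter is active in most nociceptors, the sensory neurons that report damage and heat, and in part of the other sensory neurons. A ganglion holds the cell bodies of these neurons, the satellite glia that wrap them, Schwann cells along the axons, fibroblasts and matrix, blood vessels and macrophages. A Cre-negative control has no tagged ribosomes, so its library holds RNA that the procedure carries over. Bulk counts of this kind cannot tell fewer cells of a type from less RNA per cell or from less carry-over of its RNA.

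The libraries did not fall apart by genotype alone. In units of 1000000 counts (M), totals were 15.6 to 19.6 M in the Cre libraries, 18.1 M in control 5 and 3.6 to 4.52 M in controls 6 to 8. Spearman's rho across genes was 0.968 to 0.987 among the Cre libraries and 0.947 to 0.967 between control 5 and the Cre libraries. Control 5 had a rho of 0.734 to 0.851 with the other controls, and controls 6 to 8 had 0.708 to 0.848 among themselves. Cre and control 5 libraries held 15487 to 15998 genes with at least 10 counts, and controls 6 to 8 held 13859, 10014 and 12518. After thinning each library to the smallest total, the Cre libraries held 11796 to 12473 such genes, control 5 held 12874 and controls 6 to 8 held 13632, 10014 and 12269. No pair of libraries within a group looked like a copy, since chi-square over genes was at least 28.6 times its degrees of freedom in every such pair. Pairs of a Cre library and a control were not checked in this way. Log2 fold changes in parentheses after a gene's levels are given with control 5 and without it, and the SE and adjusted p beside them belong to the fit without it, since no gene passed with all 8 libraries. Control 5 was left out with its values known, so calls made without it describe those 7 libraries and do not test a difference between the genotypes at large.

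Levels are in normalised CPM, which is counts per 1000000 of the library total after scaling by TMM, a factor that balances the bulk of the genes between libraries. A level is a share of its library and not an amount of RNA, also where a library is said to hold more of an RNA. A level of 3 counts, taken as the smallest detectable amount, corresponded to 0.185 to 0.214 normalised CPM in the Cre libraries, 0.159 in control 5 and 0.620 to 0.706 in controls 6 to 8. This floor covers counting error only.

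The groups overlapped in Scn10a, whose promoter drives the Cre, and in Rpl10a, which encodes the protein that is tagged. Scn10a (ENSMUSG00000034533, chromosome 9, 119608456 to 119719322, GRCm38) was at 335, 414, 379 and 470.5 normalised CPM in Cre 5 to 8 and at 289.7, 268, 506 and 267 in controls 5 to 8. Its log2 fold change was 0.26 (SE 0.29, edgeR adjusted p 0.69), and scaling by library size alone turned it to -0.03. The normalised level of Scn10a was higher in control 7 than in any Cre library, so Scn10a RNA was present in a pulldown without a tag. In counts, controls 6 to 8 had at most 2152 and the Cre libraries up to 7556, and amounts of RNA cannot be compared. Rpl10a (ENSMUSG00000037805, chromosome 17, 28328471 to 28331033) was at 117, 162, 170.3 and 121 normalised CPM in Cre 5 to 8 and 109, 166, 155 and 144 in controls 5 to 8. Its log2 fold change was -0.02 (SE 0.26, edgeR adjusted p 0.985) and turned positive in some alternatives. The counts do not tell the tagged from the endogenous transcript.

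With all 8 libraries, edgeR's quasi-likelihood test called 0 of 15280 genes at an adjusted p under 0.05 (0% in either direction, smallest adjusted p 0.0510). At an unadjusted p under 0.05 there were 1000 genes higher in Cre libraries (6.54%) and 1503 lower (9.84%). DESeq2 called 1160 genes, 188 higher and 972 lower, and voom called 0, or 1225 with sample quality weights. Every Cre library lay above every control in 1250 genes (8.18%) and below every control in 786 (5.14%). Counts of list members without overlap are to be read beside these shares. Leaving out control 7 in place of control 5 called 496 genes, and leaving out any other single library called 0.

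Without control 5 the same test called 1826 of 15612 genes, 1001 higher (6.41%) and 825 lower (5.28%) in Cre libraries. Counts of list members called without control 5 are to be read beside these shares. The median log2 fold change was 1.95 for the higher genes and -2.67 for the lower genes, against 0.11 for all genes tested. With all 8 libraries the same genes had medians of 1.18 and -2.33. With scaling by library totals in place of TMM, all genes had a median of -0.19, and 691 were called higher and 1214 lower. Thinned to 1 depth the test called 1375 genes, 554 higher and 821 lower, and 1295 of the 1826 were among them. With the axon libraries of the batch in the same fit it called 519 genes, 142 higher and 377 lower. The count rested on single libraries. It was 133 without Cre 8, 264 without Cre 7, 417 without Cre 5, 437 without Cre 6, 3665 without control 6, 4634 without control 7 and 2150 without control 8. Of 98 genes called without control 5 that were followed singly, 38 were called in all 7 of these fits.

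**Figure D1:**
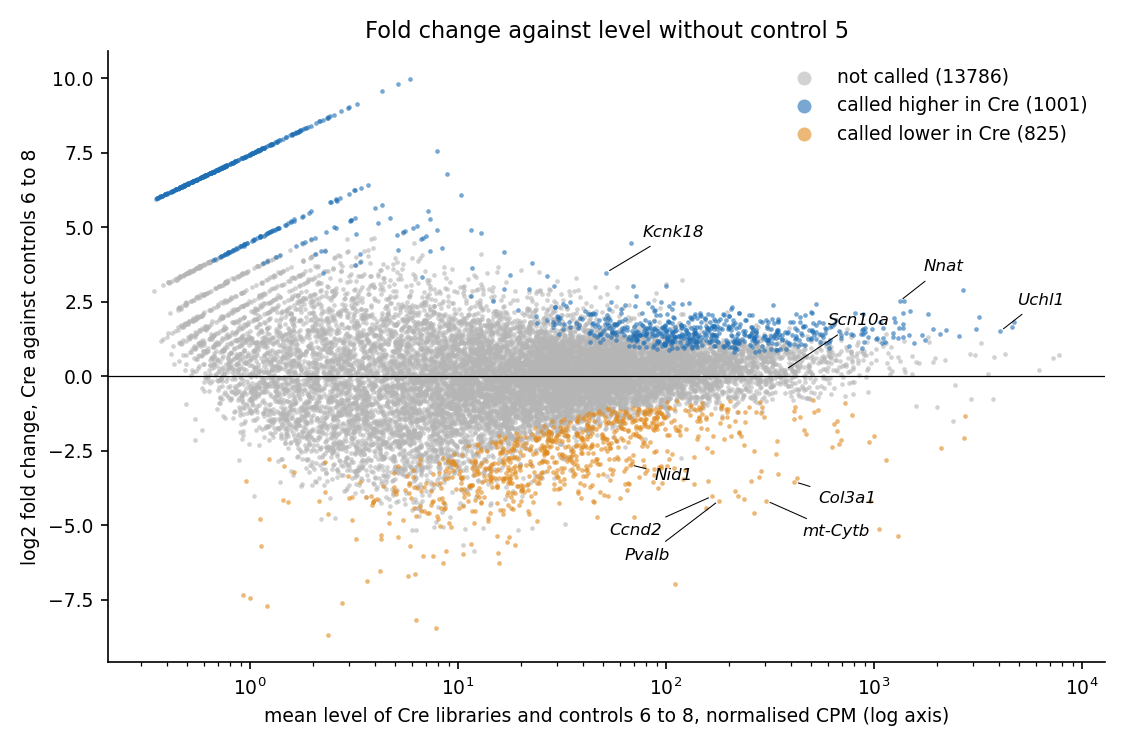
Each point is 1 of the 15612 genes tested without control 5, with the mean level of Cre 5 to 8 and controls 6 to 8 on the x axis (normalised CPM, log axis) and the log2 fold change on the y axis. The 825 genes called lower (orange) spread to larger changes than most of the 1001 called higher (blue), except for the blue lines at the upper left, which are genes with 0 or few counts in controls 6 to 8.

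Nid1, Col3a1 and Ccnd2 were lower in every Cre library than in every control. Nid1 encodes nidogen 1, which ties laminin to collagen IV in the basement membrane, Col3a1 encodes a fibrillar collagen made by fibroblasts, and Ccnd2 encodes cyclin D2, a cell cycle cyclin. Nid1 (ENSMUSG00000005397, chromosome 13, 13437551 to 13512269) was at 14, 21.9, 12.1 and 12.8 normalised CPM in Cre 5 to 8 and at 58.2, 113, 156 and 89.3 in controls 5 to 8. Col3a1 (ENSMUSG00000026043, chromosome 1, 45311538 to 45349706) was at 60.4, 101, 50.7 and 51.1 and 237, 585, 1291 and 411. Ccnd2 (ENSMUSG00000000184, chromosome 6, 127125162 to 127152193, with 7.86% of its exon length opposite another gene) was at 21, 28.1, 13.3 and 14.5 and 51.1, 478, 199 and 267. In each of the 3 genes control 5 was the lowest control and still lay above the highest Cre library. The means were 15.2 ± 4.55 in the Cre libraries (SD, n = 4), 104 ± 41.3 in the 4 controls (n = 4) and 119.5 ± 34 in controls 6 to 8 (n = 3) for Nid1. The log2 fold changes with all 8 libraries were -2.78 (SE 0.4) for Nid1, -3.26 (SE 0.51) for Col3a1 and -3.7 (SE 0.58) for Ccnd2, each with an edgeR adjusted p of 0.0510. Without control 5 they were -2.97 (SE 0.35, edgeR adjusted p 0.00569), -3.54 (SE 0.44, adjusted p 0.00597) and -4.02 (SE 0.39, adjusted p 0.00372), which are folds of 7.84, 11.6 and 16.2. These 3 calls held in all 7 fits that left out 1 further library.

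**Figure D2:**
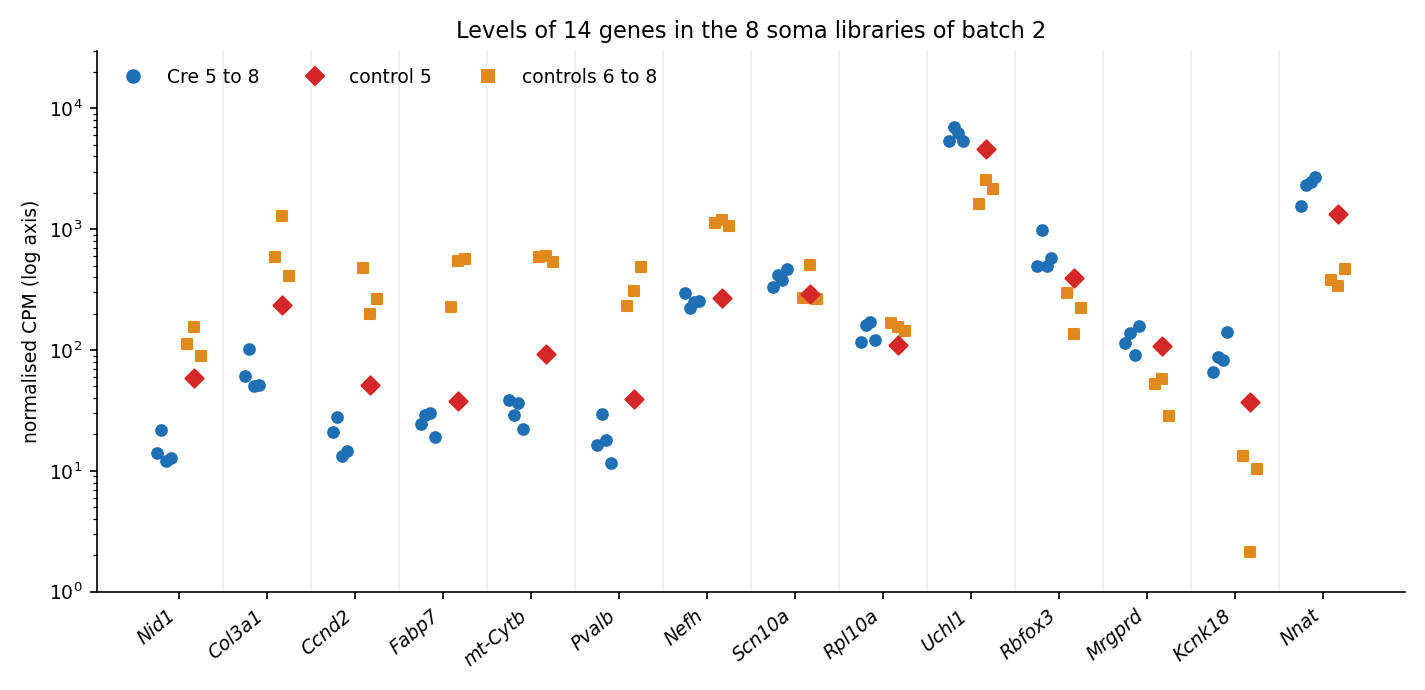
The level of 14 genes in each library (normalised CPM, log axis), with Cre 5 to 8 as blue circles, control 5 as a red diamond and controls 6 to 8 as orange squares. Controls 6 to 8 lie above the Cre libraries for Nid1 to Nefh and below them for Uchl1 to Nnat, while control 5 lies between the groups for Nid1 and Col3a1 and among or near the Cre libraries for Nefh, Uchl1 and Mrgprd.

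The promoters of Nid1 and Col3a1, which fell together, are shown beside that of Uchl1, a neuronal gene that was higher in Cre libraries, as examples of the 2 directions. Each is the RefSeq promoter of the GRCm38.p6 table, 250 bases before to 50 after the start, on the plus strand, at chr13:13437352-13437651 for Nid1, chr1:45311288-45311587 for Col3a1 and chr5:66675871-66676170 for Uchl1. Capitals mark 3 motifs, searched on both strands and not overlapping in these windows. The TATA motif was spelled TATAAA. The CAAT-box motif searched for was spelled CCAAT. The GC-box motif was spelled GGGCGG.
Nid1: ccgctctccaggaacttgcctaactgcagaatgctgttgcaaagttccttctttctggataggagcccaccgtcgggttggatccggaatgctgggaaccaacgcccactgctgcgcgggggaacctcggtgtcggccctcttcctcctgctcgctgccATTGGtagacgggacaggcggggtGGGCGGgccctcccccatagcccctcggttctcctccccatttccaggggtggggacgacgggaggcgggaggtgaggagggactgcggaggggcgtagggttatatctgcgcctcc
Col3a1: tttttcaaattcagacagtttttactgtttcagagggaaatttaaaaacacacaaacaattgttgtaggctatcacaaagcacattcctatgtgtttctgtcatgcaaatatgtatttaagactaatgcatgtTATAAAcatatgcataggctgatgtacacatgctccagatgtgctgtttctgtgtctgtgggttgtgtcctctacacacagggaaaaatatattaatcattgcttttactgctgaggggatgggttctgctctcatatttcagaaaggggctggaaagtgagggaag
Uchl1: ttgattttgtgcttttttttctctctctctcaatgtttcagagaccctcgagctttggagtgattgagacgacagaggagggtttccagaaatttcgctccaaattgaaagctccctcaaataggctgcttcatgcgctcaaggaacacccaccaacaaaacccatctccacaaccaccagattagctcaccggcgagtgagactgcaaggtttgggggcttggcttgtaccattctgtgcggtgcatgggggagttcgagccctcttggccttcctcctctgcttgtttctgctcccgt
Nid1 held 1 CAAT-box motif on the minus strand and 1 GC-box motif on the plus strand at a G+C content of 64.7%, Col3a1 held 1 TATA motif at 37.7%, and Uchl1 held none of the 3 motifs in this window at 50.7%. Among all 32851 promoters of the table, 13.6% held the TATA motif, 37.4% the CAAT-box motif and 35.7% the GC-box motif. Among the 549 promoters of genes called lower without control 5 the shares were 8.7%, 38.3% and 60.7%, and among the 709 of genes called higher they were 9.3%, 39.1% and 61.5%. Among the 11195 promoters of all genes tested they were 7.0%, 38.4% and 63.8%. The G+C content was 60.8% for lower, 59.8% for higher and 61% for all genes tested. Neither set of called genes therefore stood far from the tested genes in these letters. A match describes the letters and is not a binding site.

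Genes of the extracellular matrix were lower in the Cre libraries than in the controls. All 11 tested basement membrane genes and all 16 fibrillar and associated collagen genes had a negative log2 fold change with 8 libraries, with medians of -2.56 and -2.97 against 0.06 for all genes. Every Cre library was below every control in 11 of the 11 and in 11 of the 16, against 5.14% of all genes. Without control 5 the test called 10 of the 11 and 15 of the 16 lower and none higher, against 5.28% of all genes called lower. Leaving out 1 further library gave 5 to 11 and 6 to 15 calls, the fewest without Cre 8 for the basement membrane and without Cre 5, Cre 7 or Cre 8 for the collagens. Lamb1, a laminin chain, was at 15.6 to 27.8 normalised CPM in the Cre libraries, 60.3 in control 5 and 172, 228 and 104 in controls 6 to 8 (log2 fold change -2.76 with control 5 and -3.01 without, SE 0.36, edgeR adjusted p 0.00569). Col4a1, a chain of the collagen IV network, was at 17.7 to 35, 57.4 and 222, 274 and 91.3 (-2.81 with control 5 and -3.09 without, SE 0.42, adjusted p 0.0075). In both genes control 5 stood above the Cre range and below controls 6 to 8. Sparc, a collagen-binding matrix protein, was at 127 to 307, 377 and 1079, 1360.2 and 721 (-2.12 with control 5 and -2.37 without, SE 0.35, adjusted p 0.00909).

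Postn, which encodes the matrix protein periostin, was at 6.48 to 15.4 normalised CPM in the Cre libraries, 27.6 in control 5 and 139, 138 and 87 in controls 6 to 8. Col5a2, a collagen V chain, was at 4.92 to 10.7, 28.4 and 58.2, 136 and 49.8. Both fell without control 5, with log2 fold changes of -3.57 (SE 0.4, edgeR adjusted p 0.00484) for Postn and -3.63 (SE 0.52, adjusted p 0.00861) for Col5a2. The basement membrane gene that was not called was Lamb2 (chosen after its values were seen), at 10.5 to 14.7 in the Cre libraries and 16.7, 30.9, 23.5 and 34.7 in controls 5 to 8. Summed over the collagen list, the level was 219 to 524 normalised CPM in the Cre libraries, 1031 in control 5 and 1742 to 3846 in controls 6 to 8. The sum in control 5 was 3.28 times the Cre mean and that in controls 6 to 8 was 9.06 times the Cre mean.

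Fibroblast markers followed the matrix genes, with which the list shares Col3a1, Col1a1 and Col1a2. With 8 libraries 10 of 11 tested markers had a negative log2 fold change (median -2.48), and 9 lay below every control in every Cre library, against 5.14% of all genes. Without control 5 the test called 8 of 11 lower and 1 higher, against 5.28% and 6.41% of all genes. It called 5 to 10 lower with 1 further library left out. Col1a2, a chain of collagen I, was at 56.5, 109, 47.6 and 42.8 normalised CPM in Cre 5 to 8 and 248, 676, 896 and 309 in controls 5 to 8 (log2 fold change -3.06 with control 5 and -3.29 without, SE 0.45, edgeR adjusted p 0.00731). Dcn, which encodes the proteoglycan decorin, was at 79.5, 68, 78.8 and 89.5 and 156, 427, 328 and 604 (-2.27 with control 5 and -2.51 without, SE 0.26, adjusted p 0.00389). Pdgfra, a growth factor receptor of fibroblasts, was at 3.62, 3.28, 1.6 and 1.99 and 13, 23.9, 49.4 and 53.5 (-3.73 with control 5 and -4.0 without, SE 0.59, adjusted p 0.00909). The 4 Cre libraries lay below all controls in each of these genes. Pi16, a marker of some fibroblasts and the exception of the list, was at 20.4, 34.3, 12.2 and 19.2 in Cre 5 to 8, 33.4 in control 5 and 3.58, 0.235 and 1.45 in controls 6 to 8. It was called higher without control 5 (1.13 with control 5 and 3.62 without, SE 0.94, adjusted p 0.037), and control 5 lay within the Cre range. This call was lost without any single Cre library and without control 8.

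Glial genes fell in part, and their counts of calls stand beside 5.28% of all genes called lower and 6.41% called higher. Of 12 satellite glia markers, 10 had a negative log2 fold change with 8 libraries (median -1.95), and without control 5 the test called 6 lower and 1 higher, with 1 to 7 lower calls when 1 further library was left out and the fewest without Cre 8. Fabp7, a fatty acid binding protein of satellite glia, was at 24.5, 29.3, 30.0 and 19 normalised CPM in Cre 5 to 8, 38 in control 5 and 226, 541 and 571 in controls 6 to 8. Its log2 fold change without control 5 was -4.12 (SE 0.37, edgeR adjusted p 0.00266). Control 5 lay just above the highest Cre library, while the other controls were at least 226. Apoe, which encodes the lipid carrier apolipoprotein E, was at 201, 273, 189 and 115 and 357, 427, 1356 and 467 (-1.75 with control 5 and -1.95 without, SE 0.45, adjusted p 0.0269). The groups did not overlap in Fabp7 or Apoe. Bcan, which encodes the proteoglycan brevican, went the other way, at 37.2, 38.3, 24.3 and 29.3 in Cre 5 to 8 and 20.3, 6.04, 1.65 and 1.65 in controls 5 to 8 (2.09 with control 5 and 3.38 without, SE 0.68, adjusted p 0.0212), and its call was lost without any single Cre library.

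Among 15 Schwann cell markers, 14 had a negative log2 fold change with 8 libraries (median -1.53), and 6 were called lower without control 5, with 2 to 8 calls over the fits that left out 1 further library and the fewest without Cre 8. S100b, a calcium-binding protein of glia, was at 196, 329, 268 and 183 normalised CPM in Cre 5 to 8 and 202, 889, 542 and 465 in controls 5 to 8 (-1.11 with control 5 and -1.36 without, SE 0.31, adjusted p 0.0259), with control 5 inside the Cre range. Pmp22, a peripheral myelin protein gene, was at 421, 273, 444 and 609 and 493, 279, 688 and 235, so that the groups overlapped (0.04 with control 5 and 0.13 without, adjusted p 0.878), and its sign depended on the scaling (-0.2 by library size alone).

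Vessel, macrophage and blood cell lists differed in how many members passed the test, and blood cell genes passed most often. Without control 5 the test called 3 of 12 endothelial, 0 of 8 pericyte and smooth muscle, 3 of 12 macrophage, 4 of 5 blood cell and 0 of 7 perineurium and barrier markers lower, and none of these higher. These counts stand beside 5.28% of all genes called lower and 6.41% called higher. The medians with 8 libraries were -1.88, -1.04, -2.19, -3.14 and -0.64. The pericyte and perineurium medians kept no sign: without control 5 they were 0.17 and 0.65 by voom and 0.08 and 0.63 with the replicate block, the pericyte median was 0.54 without control 6 as well, and with 8 libraries both turned positive under the same alternatives. Cdh5, the cadherin of endothelial junctions, was at 2.75, 5.13, 2.89 and 2.05 normalised CPM in Cre 5 to 8 and 10.1, 43, 9.18 and 32 in controls 5 to 8 (-2.88 with control 5 and -3.12 without, SE 0.72, edgeR adjusted p 0.0264). Emcn, an endothelial sialomucin, was at 0.685 to 1.54 and 5.13 to 49.9, and the tight junction gene Cldn5 at 0.872 to 3.92 and 7.16 to 41.2. All 3 endothelial calls were lost without any single Cre library. Lyz2, a lysozyme of macrophages, was at 1.74 to 4.41 in the Cre libraries and 10.1, 10.3, 39.5 and 29.5 in controls 5 to 8 (-3.13 with control 5 and -3.38 without, SE 0.74, adjusted p 0.0239). Tyrobp, a signalling adaptor of myeloid cells, was at 0.809 to 2.63 and 3.23, 13, 19.1 and 41.5 (-3.9 with control 5 and -4.25 without, SE 0.82, adjusted p 0.0185). Adgre1, the gene of the F4/80 antigen, was the other macrophage call, at 0.187 to 0.375 normalised CPM in the Cre libraries. Without control 5 Adgre1 passed the low-count filter through controls 6 to 8 alone, so a lower call was the only one open to it. Macrophage calls numbered 0 without Cre 5, Cre 7 or Cre 8 and 7 without control 7. The globin gene Hbb-bs was at 49.1, 79.3, 13 and 24.3 in Cre 5 to 8, 36 in control 5 and 741, 453 and 224 in controls 6 to 8 (-3.14 with control 5 and -3.51 without, SE 0.62, adjusted p 0.0141). For globin RNA control 5 lay within the Cre range, and the 4 calls were lost without Cre 8. Globin genes are close copies, so reads may be split between them.

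Of 20 tested cell cycle genes, 16 had a negative log2 fold change with 8 libraries (median -1.31), and without control 5 the test called 5 lower and 1 higher, with 3 to 8 lower calls over the fits that left out 1 further library, the fewest without any single Cre library and the most without control 7. The 5 lower and 1 higher of 20 compare with 5.28% and 6.41% of all genes. The lower calls were Ccnd2, Ccnd1, Cdk6, Mki67 and Cdkn1c. Mki67, a marker of dividing cells, was at 2.3 to 7.4 normalised CPM in the Cre libraries and 12.5, 36.3, 67.5 and 16.5 in controls 5 to 8 (-2.73 with control 5 and -3.0 without, SE 0.66, edgeR adjusted p 0.0239). Cdkn1c, an inhibitor of the cycle, was at 67.8, 70.6, 25.7 and 30.6 and 119, 307, 263 and 276 (-2.31 with control 5 and -2.53 without, adjusted p 0.0097), with 30.7% of its exon length opposite another gene. The list therefore moved as its D cyclins, an inhibitor and a proliferation marker, while Cdkn1a, the inhibitor p21, was higher in every Cre library than in every control. Cdkn1a was at 481, 554, 575 and 617 and 374, 176, 205 and 228 (1.17 with control 5 and 1.46 without, SE 0.23, adjusted p 0.0113), and its call was lost without Cre 8.

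Vim, which encodes the intermediate filament vimentin of glia and mesenchyme, was at 251, 229, 230.0 and 216 normalised CPM in Cre 5 to 8 and 331, 1182, 851 and 1336 in controls 5 to 8 (-2.0 with control 5 and -2.27 without, SE 0.24, edgeR adjusted p 0.00389). Hes1, a transcription factor downstream of Notch, was at 6.48 to 10.1 in the Cre libraries, 11.2 in control 5 and 183, 73 and 107 in controls 6 to 8 (-3.47 with control 5 and -3.82 without, adjusted p 0.00389). Zeb2, a transcription factor of several cell types that include Schwann cells, was at 15.6 to 23.2, 29.4 and 150.1, 112 and 145 (-2.5 with control 5 and -2.8 without, adjusted p 0.00385). In these 3 genes control 5 stood closer to the Cre libraries than to the other controls. Cdh6, a cadherin gene, was at 3.86 to 5.7, 6.29 and 77.9, 69.7 and 109.7 (-3.85 with control 5 and -4.22 without, adjusted p 0.00266). Fam19a2, which encodes a secreted chemokine-like protein of neurons, was at 2.62 to 4.06, 12.6 and 43.6, 124 and 102 (-4.38 with control 5 and -4.73 without, adjusted p 0.00389). All 5 calls held in each of the 7 fits that left out 1 further library.

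RNA encoded by the mitochondrial genome, which is translated inside mitochondria and not by cytosolic ribosomes, gave the largest median change of the 25 lists. Of 15 genes listed, 5 had 0 counts in all 8 libraries, and all 10 tested had a negative log2 fold change, with a median of -3.96 with 8 libraries and -4.3 without control 5. In 9 of the 10 every Cre library lay below every control, against 5.14% of all genes. Without control 5 all 10 were called lower, with 9 to 10 calls over the fits that left out 1 further library. mt-Cytb, the gene of cytochrome b, was at 38.8, 29.1, 36.4 and 22.2 normalised CPM in Cre 5 to 8, 92.2 in control 5 and 589, 599 and 536 in controls 6 to 8 (-3.85 with control 5 and -4.17 without, SE 0.27, edgeR adjusted p 0.00037). mt-Nd6, the complex I subunit encoded on the other strand, was at 14.4, 15.6, 12.5 and 13.5, 37.2 and 332, 323 and 239.9 (-4.06 with control 5 and -4.41 without, SE 0.25, adjusted p 0.000255, the smallest of all genes). Both genes had control 5 between the groups and nearer to the Cre libraries. The mitochondrial ribosomal RNA mt-Rnr2 was at 64.9, 126, 31.5 and 26.3 in Cre 5 to 8 and 148, 5487, 1242 and 932 in controls 5 to 8, and mt-Rnr1 at 36.7, 163, 15.4 and 17.6 and 66.4, 4831, 837 and 497. Control 6 held the most of both, and the Cre and control ranges of mt-Rnr1 overlapped through Cre 6 and control 5. The summed level of the list was 231 to 565 in the Cre libraries, 1048 in control 5 and 5578 to 15420.0 in controls 6 to 8.

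Of 9 tested long noncoding RNAs that stay in the nucleus, 3 were called lower without control 5, against 5.28% of all genes. All 9 had a negative log2 fold change with 8 libraries (median -1.71), and the 3 calls were Malat1, Meg3 and Snhg11, with 0 to 5 calls over the fits that left out 1 further library and 0 without Cre 5 or Cre 7. Malat1 was at 828, 781, 832 and 197 normalised CPM in Cre 5 to 8, 673 in control 5 and 4669.6, 2934 and 3027 in controls 6 to 8 (-2.1 with control 5 and -2.42 without, SE 0.48, edgeR adjusted p 0.0203). Meg3, a noncoding RNA of the imprinted Dlk1 region, was at 83, 139, 63.6 and 33.3, 116 and 500.1, 439 and 241 (-2.03 with control 5 and -2.3 without, SE 0.45, adjusted p 0.02). Both had control 5 inside the Cre range, and Cre 8 held the least of both. Malat1 has 6.49% of its exon length opposite another gene.

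Few of the general neuronal genes passed the test, and they moved in both directions. Of 14 general neuronal markers, 10 had a positive log2 fold change with 8 libraries (median 0.35), and without control 5 the test called Rbfox3, Uchl1 and Gap43 higher and Nefl and Thy1 lower. Uchl1, a neuronal ubiquitin hydrolase (with 18.1% of its exon length opposite another gene), was at 5371, 6982, 6209 and 5323 normalised CPM in Cre 5 to 8, 4654 in control 5 and 1613, 2545 and 2156 in controls 6 to 8 (1.12 with control 5 and 1.51 without, SE 0.33, edgeR adjusted p 0.0239). Gap43, a growth cone protein, was at 2152, 3221, 4449 and 3396, 1719 and 1142, 717 and 1558 (1.36 with control 5 and 1.55 without, SE 0.38, adjusted p 0.0318). Rbfox3, the gene of the NeuN antigen, was at 495, 979, 499 and 574, 395 and 297, 135 and 224 (1.27 with control 5 and 1.55 without, SE 0.36, adjusted p 0.0266). All 4 Cre libraries exceeded all 4 controls in these 3 genes, with control 5 the nearest control to them. Prph, the gene of peripherin in small neurons, was at 4754 to 6174 and 2429 to 4166 in the 2 groups (0.65 with control 5 and 0.76 without, adjusted p 0.159). The summed level of the list was 23399 to 29100.0 in the Cre libraries, 20816 in control 5 and 14838 to 21761 in controls 6 to 8. The 3 higher and 2 lower calls among 14 markers compare with 6.41% and 5.28% of all genes. Every one of the 3 higher calls was lost when any single Cre library was left out.

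Among 14 tested nociceptor markers, 8 had a positive log2 fold change with 8 libraries (median 0.48), and without control 5 the test called 4 higher, among them Mrgprd, Ret and Prdm12, and Scn9a and Gfra2 lower. Mrgprd, a receptor of non-peptidergic nociceptors, was at 114, 137, 90.9 and 157 normalised CPM in Cre 5 to 8, 108 in control 5 and 52.2, 57.9 and 28.5 in controls 6 to 8 (1.01 with control 5 and 1.44 without, SE 0.34, adjusted p 0.0281). Control 5 lay within the Cre range. Ret, the receptor subunit of the GDNF family, was at 313 to 492 in the Cre libraries, 283 in control 5 and 199 to 223 in controls 6 to 8 (0.75 with control 5 and 0.88 without, SE 0.24, adjusted p 0.0464). Prdm12, a transcription factor of nociceptors, was at 302 to 375, 315 and 148 to 206 (0.71 with control 5 and 0.99 without, adjusted p 0.0263). Calca, the gene of the peptide CGRP, was higher in every Cre library than in every control, at 1111, 984, 2083 and 2076 and 907, 407, 882 and 897, but did not pass the test (1.01 with control 5 and 1.11 without, SE 0.42, adjusted p 0.12). Scn9a, the gene of the sodium channel Nav1.7, was lower, at 172, 130.2, 166 and 195 in Cre 5 to 8, 156 in control 5 and 391, 549 and 338 in controls 6 to 8 (-1.12 with control 5 and -1.36 without, SE 0.26, adjusted p 0.0184). The 4 higher and 2 lower calls among 14 nociceptor markers compare with 6.41% and 5.28% of all genes. Without Cre 8 no nociceptor marker was called in either direction, and 1 was called higher without any other single Cre library.

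Large-diameter neurons are the mechanoreceptors and proprioceptors that mostly lack Nav1.8. All 12 of their tested markers had a negative log2 fold change with 8 libraries (median -1.67), and without control 5 the test called 6 lower: Pvalb, Ntrk3, Ntrk2, Nefh, Scn1a and Cntnap2. Leaving out 1 further library gave 3 to 7 calls, the fewest without Cre 8. Pvalb, the calcium-binding protein parvalbumin of proprioceptors, was at 16.4, 29.7, 18 and 11.6 normalised CPM in Cre 5 to 8, 39.2 in control 5 and 232, 307 and 483 in controls 6 to 8 (-3.81 with control 5 and -4.17 without, SE 0.39, edgeR adjusted p 0.00304). Ntrk3, the receptor of neurotrophin-3, was at 21.9, 22.3, 17.7 and 18.4, 35.1 and 113, 145 and 235 (-2.72 with control 5 and -3.03 without, SE 0.32, adjusted p 0.00389). For these 2 genes control 5 lay above every Cre library and far below the other controls. Nefh, the heavy neurofilament of large axons, was at 299, 221, 249 and 255, 271 and 1124, 1194 and 1065 (-1.84 with control 5 and -2.13 without, SE 0.23, adjusted p 0.00389), with control 5 within the Cre range. The summed level of the list was 583 to 647 in the Cre libraries, 666 in control 5 and 2050.4 to 2711 in controls 6 to 8. Here control 5 stood at 1.09 times the Cre mean and controls 6 to 8 at 3.81 times.

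Of 6 tested markers of low-threshold C fibres, 4 had a negative and 2 a positive log2 fold change with 8 libraries (median -1.17). Without control 5 the test called 2 lower, Piezo2 and Slc17a8, and both were lost without any single Cre library. Slc17a8 had at most 13 counts in any Cre library, and control 5, at 0.0529 normalised CPM, was below all of them. Fam19a4 was at 57 to 89.5 normalised CPM in the Cre libraries and 42.1 to 62.2 in the controls (0.35 with control 5 and 0.43 without, edgeR adjusted p 0.396). Piezo2, the touch channel, was at 293, 392, 289.6 and 368 normalised CPM in Cre 5 to 8, 272 in control 5 and 993, 572 and 654 in controls 6 to 8 (-0.9 with control 5 and -1.13 without, SE 0.26, edgeR adjusted p 0.0268). Of 32 tested neuronal ion channel genes, 22 had a negative log2 fold change with 8 libraries (median -0.45), and without control 5 the test called 2 higher, a share near the 6.41% of all genes, and 8 lower, against 5.28% of all genes, with 0 to 10 lower calls over the fits that left out 1 further library and 0 without Cre 8. Kcnk18, the background potassium channel TRESK, was at 65.2, 87.6, 83.2 and 141, 37.1 and 13.2, 2.12 and 10.3 (2.56 with control 5 and 3.48 without, SE 0.61, adjusted p 0.0141), so that every Cre library exceeded every control. Kcnt1, a sodium-activated potassium channel, was at 78.7, 114, 74.6 and 98.3, 79.6 and 40.1, 26.6 and 30.6 (1.04 with control 5 and 1.51 without, SE 0.31, adjusted p 0.0215). Kcnq3, a subunit of the M current, was at 4.37, 1.5, 2.71 and 2.37, 4.71 and 34.2, 14.1 and 58.5 (-3.35 with control 5 and -3.68 without, adjusted p 0.0173). Control 5 lay within the Cre range for Kcnt1 and just above it for Kcnq3.

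Among neuropeptide and secretory granule genes, 11 of 18 tested had a positive log2 fold change with 8 libraries (median 0.05; -0.2 under scaling by library size alone), and without control 5 Nppb and Pcsk1n were called higher. Pcsk1n, which encodes a granule peptide precursor, was at 980.2, 1486, 762 and 1308 normalised CPM in Cre 5 to 8, 898 in control 5 and 408, 556 and 301 in controls 6 to 8 (1.06 with control 5 and 1.43 without, SE 0.34, edgeR adjusted p 0.0276). Nppb, the gene of a natriuretic peptide of itch neurons, was at 2.93, 1.71, 3.51 and 2.68 in Cre 5 to 8, 0.688 in control 5 and 0 in controls 6 to 8, at least 4.07-fold higher than their mean floor of 3 counts. Without control 5 Nppb passed the low-count filter through the Cre libraries alone, so a higher call was the only one open to it. Of 20 synaptic vesicle and SNARE genes, 12 had a positive log2 fold change (median 0.47), and Stx1a, Vamp2 and Syn1 were called higher without control 5. Stx1a, a syntaxin of vesicle release, was at 371, 399, 324 and 432, 360.4 and 74.5, 174 and 60.3 (1.18 with control 5 and 1.89 without, SE 0.39, adjusted p 0.0218), and Vamp2, its vesicle partner, at 893, 955, 923 and 1186, 926 and 279, 384 and 230.2 (1.12 with control 5 and 1.74 without, SE 0.28, adjusted p 0.0114). Control 5 was within the Cre range for Vamp2 and Stx1a. The higher calls, 2 of 18 granule genes and 3 of 20 synaptic genes, stand beside 6.41% of all genes called higher. With Cre 8 left out none of the genes of these 2 lists was called higher, and the neuropeptide calls were also lost without any other single Cre library.

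Transport motor and cytoskeleton genes moved both ways. With 8 libraries 15 of 26 had a positive log2 fold change (median 0.24; -0.02 under scaling by library size alone), and without control 5 Klc1, Dctn1 and Ina were called higher and Dync1h1, Nefl, Nefm, Nefh and Map2 lower. Dctn1, a dynactin subunit, was at 469.8, 470.4, 382 and 453 normalised CPM in Cre 5 to 8, 407 in control 5 and 103, 96.7 and 168 in controls 6 to 8 (1.19 with control 5 and 1.86 without, SE 0.27, edgeR adjusted p 0.00909). Dync1h1, the dynein heavy chain with which dynactin works, was at 292, 329, 243 and 302, 302 and 747, 1205 and 1169.6 (-1.56 with control 5 and -1.83 without, SE 0.26, adjusted p 0.00859). The 2 partners thus changed in opposite directions, and control 5 was inside the Cre range for both. Nefm, the middle neurofilament (with 19.2% of its exon length opposite another gene), was at 1138, 647, 1067 and 1259, 1248 and 4289.9, 3441 and 5393 (-1.81 with control 5 and -2.08 without, SE 0.33, adjusted p 0.0114). Ina, a neurofilament partner of the same family, was at 427, 539, 476 and 513, 352 and 259.6, 270.1 and 257 (0.78 with control 5 and 0.91 without, SE 0.21, adjusted p 0.0279). The 3 higher and 5 lower calls among 26 genes of the list stand beside 6.41% and 5.28% of all genes. The list had 1 higher call without any single Cre library and 2 lower calls without Cre 8.

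All 31 proteasome genes had a positive log2 fold change with 8 libraries (median 0.68, and 0.53 without control 5 under scaling by library size alone), and 10 were called higher without control 5 and 0 lower. With 1 further library left out the higher calls ran from 1 to 13, the fewest without Cre 7 or Cre 8. Psmd3, a subunit of the regulatory cap, was at 294, 231, 271 and 273 normalised CPM in Cre 5 to 8, 291 in control 5 and 75.6, 45.4 and 71.1 in controls 6 to 8 (1.14 with control 5 and 2.07 without, SE 0.26, edgeR adjusted p 0.00619). Psmb5, a catalytic subunit, was at 333, 452, 615 and 454, 284 and 82.8, 192 and 174 (1.34 with control 5 and 1.64 without, SE 0.36, adjusted p 0.0239), with 12.1% of its exon length shared with another gene. Psmd11, another cap subunit, was at 183, 139.9, 270.2 and 232, 133 and 74.1, 66.1 and 59.3 (1.31 with control 5 and 1.64 without, SE 0.29, adjusted p 0.0143). In Psmb5 and Psmd11 every Cre library exceeded every control. Of 18 cytosolic chaperones 14 had a positive log2 fold change with 8 libraries (median 0.27), and Ahsa1, Stip1 and Cct7 were called higher without control 5. Ahsa1, an activator of HSP90, was at 199, 199.7, 309 and 263, 167 and 35.8, 69.7 and 89.7 (1.42 with control 5 and 1.91 without, SE 0.36, adjusted p 0.0171). The 10 of 31 proteasome genes and 3 of 18 chaperones called higher stand beside 6.41% of all genes. The chaperone calls were lost without Cre 7 or Cre 8, and the median of the chaperones without control 5 turned from 0.26 to -0.05 under scaling by library size alone.

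**Figure D3:**
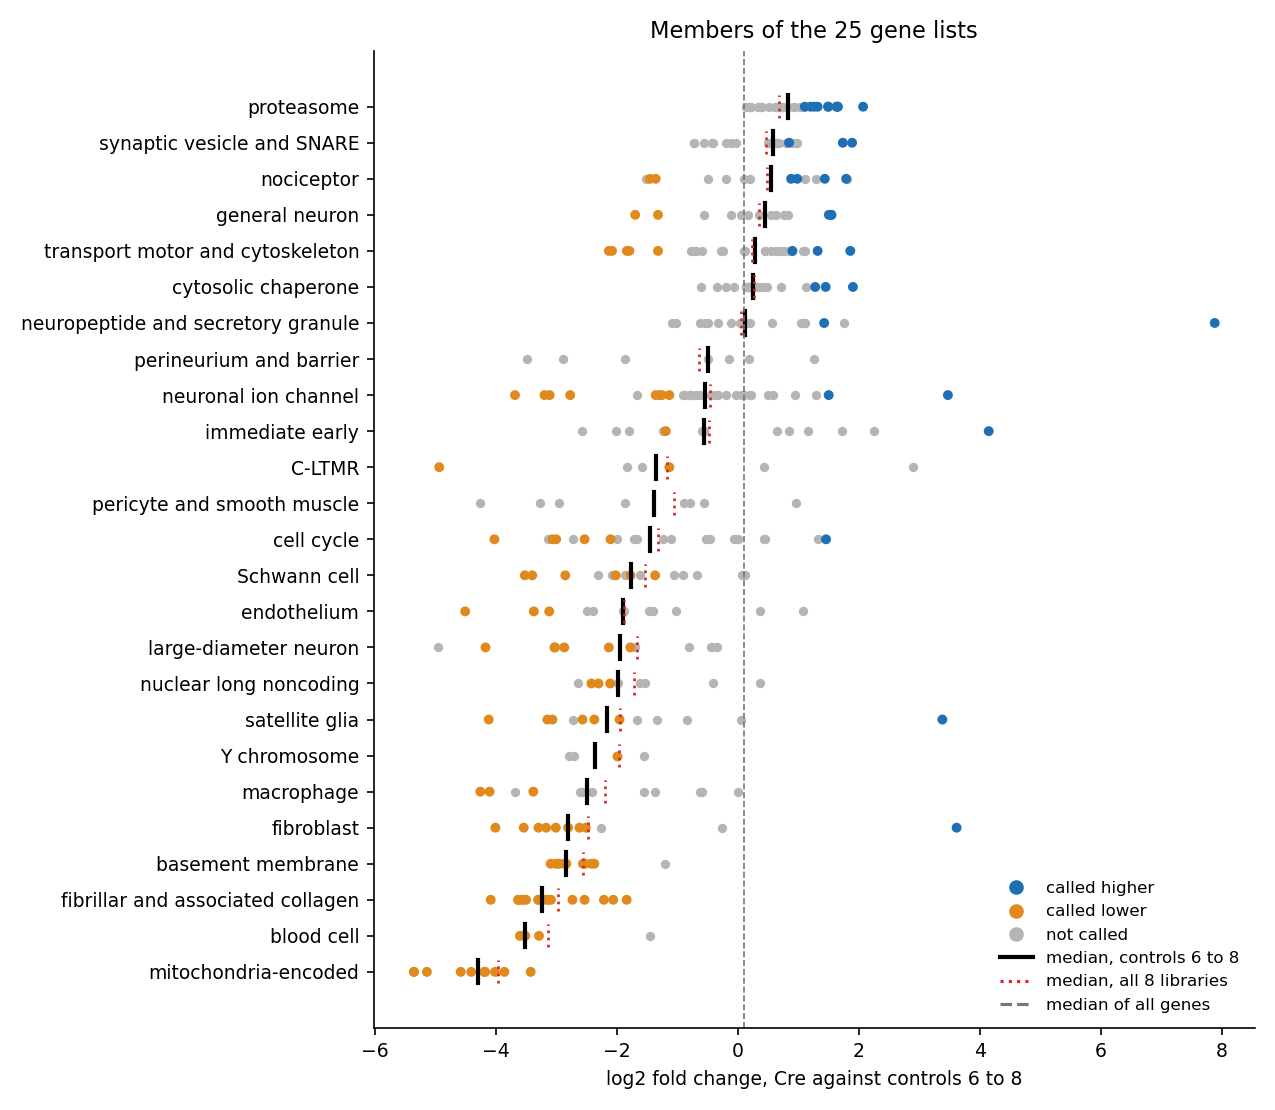
Log2 fold changes of the tested members of 25 gene lists without control 5 (points; blue called higher, orange called lower, grey not called), with list medians without control 5 (black bars) and with all 8 libraries (red dotted bars) and the median of all genes (dashed line). Mitochondria-encoded, blood, collagen, basement membrane and fibroblast lists lie farthest to the left, and the proteasome and synaptic lists farthest to the right.

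Outside the lists, the genes with the smallest p among those higher in every Cre library included well-covered genes and genes near the floor. The well-covered genes come first. Ppp1r11, an inhibitor of protein phosphatase 1, was at 277, 462, 492 and 378 normalised CPM in Cre 5 to 8, 194 in control 5 and 100.0, 89 and 100.0 in controls 6 to 8 (log2 fold change 1.73 with 8 libraries, SE 0.33, edgeR adjusted p 0.0583; 2.07 and 0.00679 without control 5). Fxyd2, a small regulator of the sodium pump found in sensory neurons, was at 127, 208, 225 and 146, 88.5 and 43.9, 34.1 and 32.9 (1.82, SE 0.38, adjusted p 0.0705; 2.27 and 0.00726). Ten1, a telomere protein gene, was at 110.0, 187, 253 and 177, 84.2 and 55.5, 45.4 and 64.3 (1.54, SE 0.32, adjusted p 0.0705; 1.73 and 0.0165). These 3 genes kept control 5 below every Cre library. Nnat, which encodes the membrane protein neuronatin, was at 1542, 2321, 2443 and 2713, 1326 and 382, 337 and 470.5 (1.84 with control 5 and 2.52 without, SE 0.32, adjusted p 0.00597 without control 5). Dusp26, a phosphatase of neural tissue, was at 683, 1108, 842 and 922, 607 and 211, 126 and 159.7 (1.68 with control 5 and 2.43 without, SE 0.29, adjusted p 0.00569). For both, control 5 was the nearest control to the Cre libraries and lay below all 4 of them.

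The other genes with the smallest p without control 5 had control 5 at or near the Cre range. Nacad, an alpha chain family member of the nascent polypeptide complex, was at 368, 412, 309 and 298 normalised CPM in Cre 5 to 8, 312 in control 5 and 76.5, 57.7 and 76.5 in controls 6 to 8 (1.4 with control 5 and 2.31 without, SE 0.25, edgeR adjusted p 0.00389). Oaz2, an inhibitor of polyamine synthesis, was at 286, 273, 286 and 374, 265 and 82.1, 63.1 and 75.4 (1.32 with control 5 and 2.06 without, adjusted p 0.00569). Limd2 was at 174, 204, 227 and 233, 180.3 and 59.1, 49.9 and 52.5 (1.29 with control 5 and 1.97 without, adjusted p 0.00569). Controls 6 to 8 thus held from 49.9 to 82.1 of these RNAs, while Cre libraries and control 5 held at least 174. Ppm1j and Slc9a3r2 showed the same order, with control 5 at 259 and 299.8 against 74.1 to 99.2 and 58.1 to 94.1 in controls 6 to 8 and 287 to 377 and 296 to 348 in the Cre libraries.

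Genes near the floor made up a large share of the calls. Of the 1001 genes called higher without control 5, 398 had at most 3 counts in each of controls 6 to 8, and 289 had 0. Their median Cre level was 1.64 normalised CPM, 2.46 times the mean floor of those controls. In control 5, which was sequenced as deeply as the Cre libraries, 310 of the 398 were above 3 counts and 71 were at 0. Among all genes tested, 739 had at most 3 counts in each of controls 6 to 8, and 0 of them were called lower. The 289 passed the low-count filter through the Cre libraries alone, so a higher call was the only one open to them. In the other direction, 13 tested genes had at most 3 counts in each Cre library, and all 13 were called lower. These 13 passed the low-count filter through controls 6 to 8 alone, so a lower call was the only one open to them. Neurog3, a transcription factor of the neurogenin family, was at 2.37, 2.56, 2.77 and 2.24 in Cre 5 to 8 and 0 in all 4 controls, at least 4.61-fold higher than their mean floor. Adh7, an alcohol dehydrogenase, was at 3.25, 1.85, 2.83 and 2.18 and 0 in all 4 controls, at least 4.69-fold higher. Fgd6, an exchange factor of Cdc42, was at 2.81, 4.77, 3.69 and 3.49 with 0.0529 in control 5 and 0 in controls 6 to 8, at least 6.85-fold higher than the mean floor of all 4. Unlike most of the 398, these 3 genes were at or under the floor in control 5 too. They passed the filter through the Cre libraries alone as well, so their direction was fixed by it. The other 603 genes called higher had a median log2 fold change of 1.5.

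The called genes differed in their make-up. Genes called lower without control 5 were protein coding in 91% of cases, those called higher in 84.1% and all genes tested in 85.8%. The median exon length per gene was 6071 bases for the lower, 2876 for the higher and 4116 for all genes tested. Exon length thus moved with the direction of the call, and its part in it was not tested.

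Control 5 was not in the fit without it and can be set beside the calls. On a scale of log2(normalised CPM + 0.5) where 0 is the mean of controls 6 to 8 and 1 the mean of the Cre libraries, its median position was 0.77 over genes called lower, 0.87 over genes called higher and 0.88 over all genes tested. It lay nearer the Cre mean in 683 of 825 lower genes (82.8%), in 835 of 1001 higher genes (83.4%) and in 71.8% of all genes tested. Control 5 was above every Cre library in 464 of the 825 lower genes and below every Cre library in 436 of the 1001 higher genes. It was inside the Cre range in 270 lower and 409 higher genes. By list its median position was 0.42 for collagens, 0.55 for basement membrane, 0.44 for fibroblast and 0.2 for Schwann cell markers. The position was 0.69 for mitochondria-encoded genes, 0.86 for large-diameter neuron markers and 0.92 for the nuclear noncoding RNAs. Among all 25 lists the position was lowest for Schwann cell and endothelial markers (0.23), so control 5 stood closest to its labelled group there. It stood beside the Cre libraries for nociceptor markers (0.99) and the blood cell list (0.92). Read depth moved with this split, since control 5 had 18.1 M counts and the other controls at most 4.52 M, and its part was not tested beyond thinning.

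**Figure D4:**
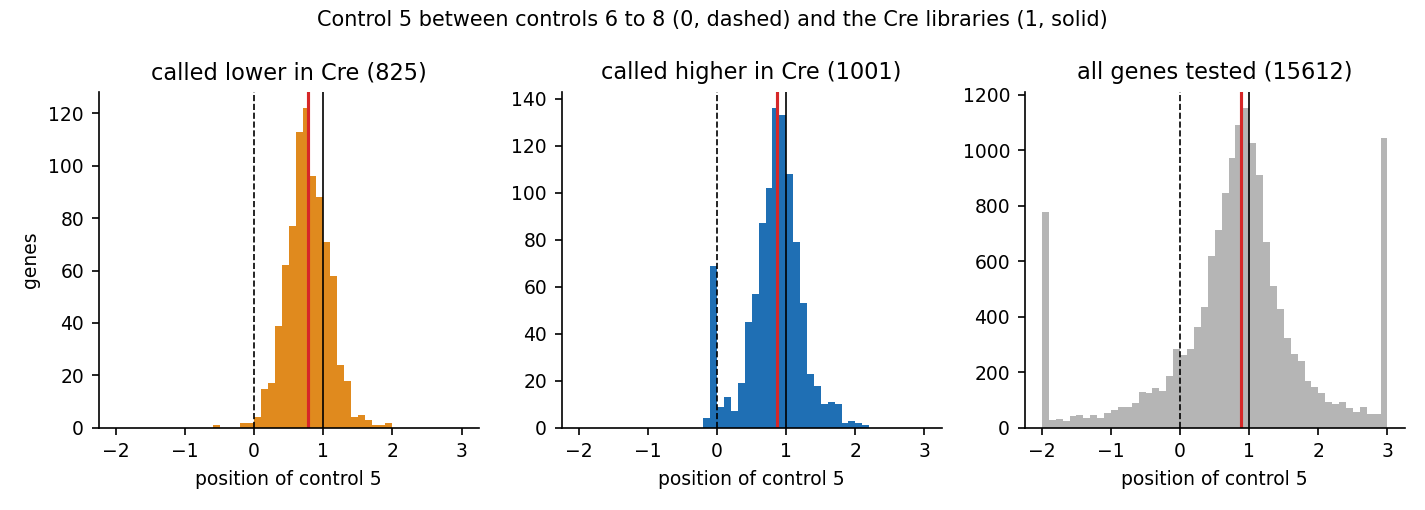
Histograms of the position of control 5 (x axis, 0 for the mean of controls 6 to 8 as a dashed line, 1 for the Cre mean as a solid line, red line the median) over 825 genes called lower, 1001 called higher and all 15612 tested, with the number of genes on the y axis and values beyond the axis placed in the end bins. The medians lie at 0.77, 0.87 and 0.88.

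**Figure D5:**
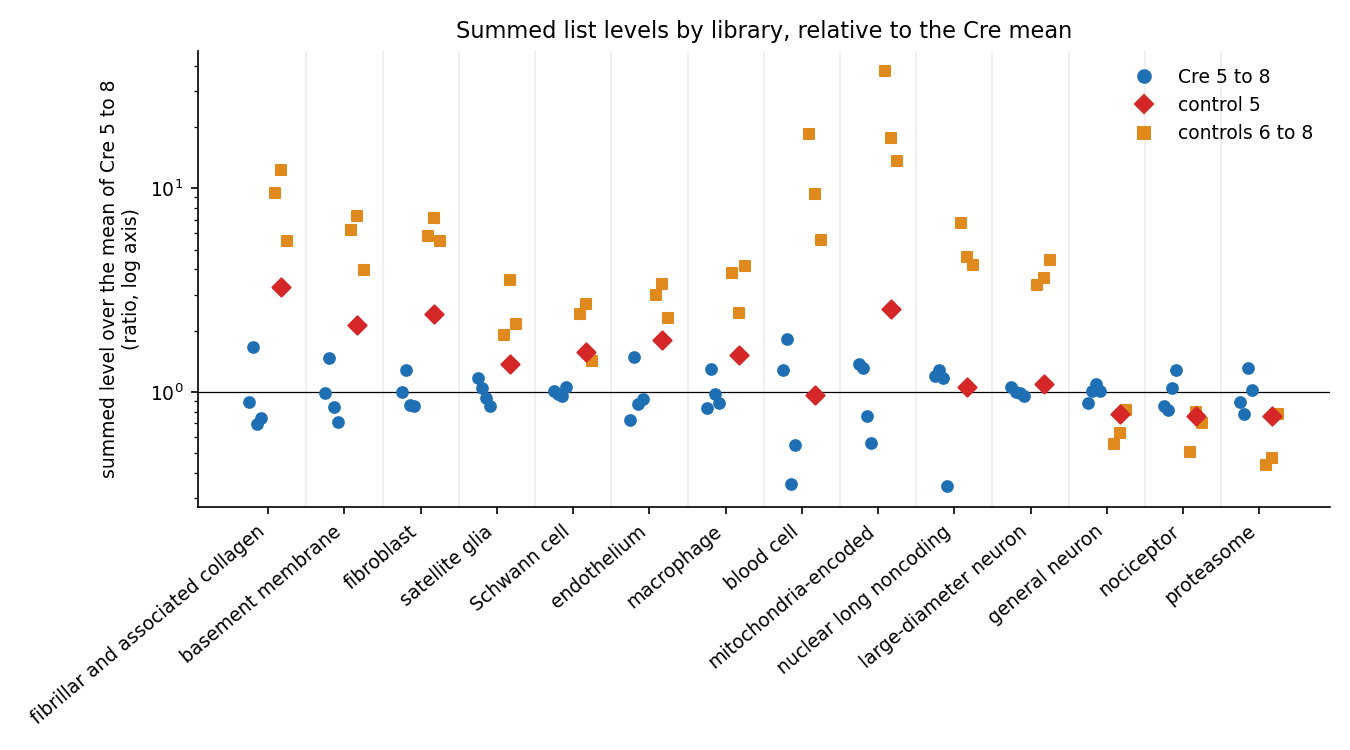
Summed levels of 14 lists in each library, divided by the mean of Cre 5 to 8 (ratio, log axis), with Cre libraries as blue circles, control 5 as a red diamond and controls 6 to 8 as orange squares. Controls 6 to 8 lie on average at 9.06 times the Cre mean for collagens and 22.9 times for mitochondria-encoded genes, while control 5 is at 3.28 and 2.54 times.

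Peripheral axons of the same batch, taken from sciatic nerve, were used to ask whether the Cre-to-control difference of somas differed from that of axons, in one model of 15 libraries in which the interaction term gives the soma log2 fold change minus the axonal value. Of 15717 genes, 0 were called positive (0%) and 1 negative (0.00636%), and 395 (2.51%) and 1136 (7.23%) had an unadjusted p under 0.05. Without control 5 it called 4 positive (0.0258%) and 21 negative (0.136%) of 15498, and without axon control 1 it called 66. DESeq2 called 343. Ccnd2, Cdh6, mt-Rnr2, Oaz2 and Slc9a3r2 were among the 25 called without control 5. Ccnd2 had a log2 fold change of -4.02 in somas without control 5 and -0.31 in axons. Nid1 and Col3a1 were at -1.31 and -1.43 in axons. There 11 of 11 basement membrane, 15 of 16 collagen and 11 of 11 fibroblast genes were lower, against 46.3% of all genes. Of mitochondria-encoded genes 5 of 10 were lower in axons, and of blood cell genes 0 of 5. In axons alone no gene passed the threshold (smallest edgeR adjusted p 0.9999).

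Somas of the first batch came from other libraries with their own controls, and their values are set beside these as a description. Among its counts 2 control columns carry the same name, so both were used as controls, and which numbered control each holds is not known. Of the 825 genes called lower in the second batch without control 5, 649 were tested in the first batch, where 540 (83.2%) were lower in Cre libraries with a median log2 fold change of -2.19, against 56.9% lower and -0.44 for all genes. Leaving out control 3 of the first batch was chosen after seeing the data. Without it 547 of 696 were lower (78.6%, median -1.83), against 44.2% and 0.38 for all genes. Of the 1001 higher genes, 301 of 670 were higher in the first batch (44.9%, median -0.41), and without its control 3 the median was 1.19 and 22% of 754 were lower. The direction of the higher genes in the first batch thus turned on that control. Collagens had a median of -2.98 there and -2.96 without control 3, basement membrane genes -2.49 and -2.78, mitochondria-encoded genes -3.92 and -4.16, and large-diameter neuron markers -1.47 and -1.18. General neuronal markers had -2.62 and 0.21, and proteasome genes -1.98 and 0.45.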

How the data were processed

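The authors deposited raw read counts per gene, and each library's column was used as deposited. Per the submitters' processing notes reads were aligned with STAR 2.7.2b to mm10, and the counting program, its strand setting and its treatment of shared reads are not given in the sources used here. Per the labels' protocols libraries were made with a SMART-Seq kit from under 1 ng of soma RNA. Counts were tested with edgeR 4.0.16 (quasi-likelihood, TMM scaling, filterByExpr with a minimum count of 10, Benjamini-Hochberg adjustment over all genes tested, threshold 0.05) in R 4.3.3, with all 8 libraries and without control 5. DESeq2 1.42.0 and limma 3.58.1 (voom) were alternatives. On simulated counts at a dispersion of 0.35, 88.5% of 200 genes with a log2 change of 3 were recovered with 8 libraries among 16153 genes, 69% of 200 without control 5 among 16352 and 24% of 200 for the soma-axon term among 15796. The coefficient of variation between replicates that edgeR estimated was 0.59 in these simulations. In the data it was 0.69 with 8 libraries, 0.66 without control 5 and 0.88 for the soma-axon term. The changed genes were well covered, and no simulated control stood apart as control 5 did. These shares therefore do not give the recovery in the data. Named genes were Scn10a, Rpl10a, the 3 markers, the 12 genes per direction with the smallest p and no overlap over 8 libraries, the next 8 per direction without control 5 (both at a log2 fold change of 1 or more in size), and up to 4 genes per list. Other list members are named where the test called them, and some genes that meet these rules are not reported here. The members and lists were chosen with earlier results of these data known. The labels call the replicates biological and do not say more of the animals.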

Additional observations from a re-analysis of the deposited data

Results flagged for a closer look

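In 35 of 258 sets of 4 libraries looked at (13.6%), 1 library lay apart from the other 3 of its group, by Dixon's criterion on the gap to the nearest library. Chance gives about 1 in 20 for a single set of unrelated values. These sets share libraries, and some genes were chosen by their p in the fit without control 5. That choice favours sets in which control 5 lies apart, so the chance rate is no yardstick here. Control 5 was the library in 17 of the 35, with the same limit. All levels here are in normalised CPM. Control 5 had 18.1 M counts (M, 1000000) against 3.6 to 4.52 M in the other controls, and its summed synaptic list was 6795 against 5038 to 5316. Control 5 was above the other controls in Pi16 (33.38), Nppb (0.6876), Ina (351.8), Psmd3 (291.3), Ppp1r11 (193.8), Fgd6 (0.0529), Nacad (312.1), Oaz2 (264.7), Limd2 (180.3), Ppm1j (259.0), Nnat (1326) and Slc9a3r2 (299.8). Fgd6 was under the floor of 3 counts in control 5 (0.159) and at 0 in the other controls, so that flag carries no weight. Control 5 was below the other controls in Nefh (271.0), Map2 (25.39) and mt-Cytb (92.25).

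Among the Cre libraries, Cre 8 was lower than the other 3 in the summed nuclear noncoding list (284.6 against 971.4 to 1064), Malat1 (196.7) and Adgre1 (0.1868) and higher in Oaz2 (373.7). For Adgre1 that level was the floor of 3 counts in Cre 8. Cre 6 was higher than the other 3 in Col4a1 (34.96), Col5a2 (10.68), Cldn5 (3.916), Tyrobp (2.634), Rbfox3 (978.8), Thy1 (57.03) and mt-Rnr1 (163.3). Cre 6 thus held more of both matrix and neuronal RNAs in these sets.

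Control 7 was higher than the other controls in Scn10a (506.4), Apoe (1356), Cldn5 (41.18) and Adgre1 (13.41). Control 6 was lower in Calca (407.0) and higher in mt-Rnr1 (4831) and Atf3 (0.2237). Atf3 was under the floor of 3 counts in control 6 (0.671) and at 0 in the other controls, so that flag carries no weight.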

How the results depend on the processing

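With 8 libraries the count of 0 genes became 257 by library size alone, 21 by RLE scaling, 162 with no low-count filter, 21 with a minimum of 10 counts throughout 1 group, 1160 by DESeq2, 1225 by voom with quality weights, 57 after thinning and 175 with all 4 groups of the batch, and ran from 0 to 1826 with 1 library left out. Without control 5 the 1826 became 3288 by DESeq2 and 519 with the axon groups, and ran from 133 to 4634 with 1 further library left out. With the replicate block it was 215, of which 213 were among the 1826, and with 8 libraries 0. Same-numbered libraries had correlations of 0.00928, 0.209, -0.00412 and 0.00322 in their deviations from the group means, and not every library correlated best with its own number. So few libraries cannot tell whether the numbers pair them, and the labels do not say. The soma-axon term called 23 genes with no filter, 343 by DESeq2, 2 by voom, 6 with quality weights and 1 to 66 with 1 library left out. No paired analysis was possible for it because somas carry numbers 5 to 8 and axons 1 to 4. Without control 3 of batch 1, an alternative chosen after seeing the data, the batch 1 medians became -1.83 for genes called lower and 1.19 for genes called higher.

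Scn10a turned to -0.0302 with 8 libraries and -0.12 without control 5 by library size alone. Rpl10a with 8 libraries turned to 0.0593 with no filter, 0.022 by voom and 0.0587 with all 4 groups, and ran from -0.117 to 0.0816 with 1 library left out. Pmp22 with 8 libraries turned to -0.25 by library size, -0.0262 by RLE scaling, -0.0263 by DESeq2 and -0.0393 after thinning, and ran from -0.15 to 0.40 with 1 left out. Without control 5 it turned to -0.20 by library size and ran from -0.13 to 0.81. Of 1742 values of 103 named genes without control 5, 1391 kept direction and side of the threshold, 344 no longer passed, 2 came to pass and 5 changed sign. Controls 6 to 8 held at most 4.52 M counts, which limits low genes. The cause of these changes was not tested.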

Other observations

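Immediate early genes, which respond to stimulation within minutes, and genes of the Y chromosome are described as further groups. Of 14 tested immediate early genes, 9 had a negative log2 fold change with 8 libraries (median -0.47, with a sign that changed in several alternatives), and without control 5 Atf3 was called higher and Jun lower (edgeR adjusted p 0.0462 and 0.0308). These counts of 1 of 14 in each direction stand beside 6.41% of all genes called higher and 5.28% called lower, and neither gene was called without any single Cre library or with the replicate block. Atf3, a transcription factor of injured sensory neurons, was at 1.19, 0.997, 1.42 and 2.37 normalised CPM in Cre 5 to 8, 0 in control 5 and 0.224, 0 and 0 in controls 6 to 8. Atf3 thus passed the low-count filter through the Cre libraries alone. Jun, its partner in AP-1, was at 55.4, 48.3, 37.8 and 52 and 70.8, 118, 134 and 80.4 in the 2 groups, which did not overlap. All 4 tested Y-linked genes had a negative log2 fold change (median -1.97), and Ddx3y was called lower without control 5 (-1.63 with control 5 and -1.99 without, SE 0.43, edgeR adjusted p 0.0239). The Ddx3y call was lost without any single Cre library, without control 8, with the replicate block and with the axon groups in the fit. Ddx3y, an RNA helicase, was at 28, 26.6, 33.7 and 29.8 in Cre 5 to 8, 8.83 in control 5 and 100.2, 50.1 and 205 in controls 6 to 8. The summed level of the 4 genes was 39.6 to 69.2 in the Cre libraries, 21.8 in control 5 and 175 to 292 in controls 6 to 8, so control 5 was the lowest of the 8 and the other controls the highest.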
